A study of Mus musculus with 13 samples.

Results

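The genes of the proteasome were followed in CD4+ T helper cells from the spleens of mice carrying the myeloma line Vk12653, a plasma cell tumour that can be passed from mouse to mouse. The members were all genes of the count table whose symbol begins with Psm, a letter from a to g and a digit, pseudogene symbols left out. This name rule found 51 of 56748 genes and used no measured value. It took in 7 alpha and 7 beta subunits of the constitutive core, 3 immunoproteasome subunits, 17 cap genes, 6 activator or inhibitor genes, 7 assembly chaperones and 2 tissue-specific core subunits. The remaining 2, Psmc3ip and Psme3ip1, match the name rule but encode no subunit. They are called name-only here and belong to no class, but they are counted where all members are counted.

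Eomes-GFP mice, which carry a GFP reporter of the T-box transcription factor Eomes, and Eomes-TKO mice, whose construction the labels do not describe, were both crossed to a line in which Foxp3 is reported by Thy1.1. All animals received an antibody depleting NK1.1+ cells (50 µg, days -2 and 5), the tumour on day 0, and then, on days 10, 13 and 16, 20 µg of an antibody: either an agonist of the costimulatory receptor 4-1BB, or IgG as control. From spleens of day 18, cells with surface TCR and CD4 but without Thy1.1, so without the Foxp3 reporter, were sorted for total RNA sequencing after ribosomal depletion. Treated Eomes-GFP mice were divided into GFP+ cells (3 libraries) and GFP- cells (3 libraries); a GFP+ and a GFP- library that share a prefix in their name were read as 1 mouse. The other groups were not divided by GFP and were Eomes-GFP mice given IgG (2 libraries), Eomes-TKO mice given the 4-1BB antibody (2) and Eomes-TKO mice given IgG (3). Ages are not stated in the sources used here, nor is it stated whether replicates were separate animals, so the p-values speak only of how these libraries spread, which may be technical.

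The proteasome degrades proteins tagged with ubiquitin. Its core is a barrel of alpha and beta rings, with the catalytic sites on the beta subunits Psmb5, Psmb6 and Psmb7, and a cap made of a base of ATPases and a lid recognises, unfolds and admits the substrate. Lymphocytes and cells exposed to interferon gamma replace the catalytic subunits by Psmb8, Psmb9 and Psmb10, which forms the immunoproteasome and shifts the peptides cut for presentation on MHC class I. The PA28 activator, built from Psme1 and Psme2, can take the place of a cap, and dedicated chaperones assemble the rings and the base without staying in the finished particle.

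The stretch of 130 bases before the RefSeq start site is given for the constitutive catalytic subunits Psmb5 and Psmb6, their immunoproteasome counterparts Psmb8 and Psmb9, and Psma1 and Psmb3, the core genes with the largest differences between GFP+ and GFP- cells. They lie on GRCm38.p6 at chr14:54617996-54618125 (Psmb5, minus strand), chr11:70525227-70525356 (Psmb6, plus), chr17:34198065-34198194 (Psmb8, plus), chr17:34187331-34187460 (Psmb9, minus), chr7:114276117-114276246 (Psma1, minus) and chr11:97703304-97703433 (Psmb3, plus). Capitals mark TGACNNNGC, the core of the antioxidant response element bound by Nfe2l1 and Nfe2l2, in Psmb5 and Psmb6, and CCAAT on either strand (ATTGG on the printed one) in Psmb9, Psma1 and Psmb3.
Psmb5: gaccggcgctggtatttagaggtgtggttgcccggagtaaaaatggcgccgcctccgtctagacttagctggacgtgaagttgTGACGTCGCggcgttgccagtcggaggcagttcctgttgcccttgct
Psmb6: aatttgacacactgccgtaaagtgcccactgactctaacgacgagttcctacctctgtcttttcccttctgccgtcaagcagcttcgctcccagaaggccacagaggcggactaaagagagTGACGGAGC
Psmb8: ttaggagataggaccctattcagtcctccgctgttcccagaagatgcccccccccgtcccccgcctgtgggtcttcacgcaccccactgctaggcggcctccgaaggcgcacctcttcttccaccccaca
Psmb9: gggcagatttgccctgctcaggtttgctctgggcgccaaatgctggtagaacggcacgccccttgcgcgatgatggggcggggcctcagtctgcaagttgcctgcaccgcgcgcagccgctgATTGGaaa
Psma1: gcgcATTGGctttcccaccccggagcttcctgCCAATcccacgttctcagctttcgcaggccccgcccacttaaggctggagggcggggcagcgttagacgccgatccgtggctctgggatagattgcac
Psmb3: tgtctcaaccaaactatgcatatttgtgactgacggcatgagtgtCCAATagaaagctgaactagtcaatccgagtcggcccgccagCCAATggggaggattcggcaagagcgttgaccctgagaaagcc

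Of the 49 members other than the name-only pair, 41 matched the RefSeq promoter table, with 44 windows of 300 bases reaching from 250 before to 50 after the start. TGACNNNGC was found on either strand in 6 windows, 13.6%, against 12.4% of the 32851 windows of all genes. The core of the interferon-stimulated response element, searched as 2 copies of GAAA separated by any 2 bases, was in 11.4% of the members' windows against 3.44% of all, and in none of the 3 immunoproteasome genes. CCAAT was in 31.8% against 37.4%, although 5 of the 7 core alpha genes held it. Each motif was searched on its own on both strands, so overlapping matches of different motifs would count under each. A match describes only these letters and is neither a shown site nor a cause.

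The members were spread over 16 chromosomes, with 10 on chromosome 11. A few stand close together in the RefSeq gene order. Psmb9, Tap1, Psmb8 and Tap2 follow one another, Tap1 and Tap2 encoding the transporter that carries proteasome products to MHC class I. Psme1 and Psme2 are separated by Emc9, Psmb5 lies beside Psmb11, and Cpne2 lies between Psme3ip1 and Nlrc5, which encodes the transactivator of MHC class I genes.

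Libraries held 6080975 to 10881146 estimated counts, and levels are given as counts per 1000000 (CPM) after scaling, on which 3 counts correspond to 0.271 to 0.468 CPM. Eomes, the check of the labels, stood at 570, 706 and 685 CPM in GFP+ libraries, at 3.54, 1.83 and 2.26 in GFP- libraries, at 14 and 16.8 in Eomes-GFP IgG libraries, at 3.59 and 8.03 in treated Eomes-TKO libraries and at 1.36, 2.96 and 3.19 in Eomes-TKO IgG libraries. The 7 CD4 T cell markers summed to between 2740 and 4990 CPM in every library. The 8 plasma cell and myeloma markers summed to 332 to 492 CPM in GFP+ libraries and to 82.0 to 124 in the other 10. Igkc was at 76.1 to 82.0 CPM in GFP+ libraries and at 0 to 15.6 in the others, and Tnfrsf17 was at 0 in all 13.

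Several libraries stood apart from their replicates. Between GFP+ libraries, the chi-square per degree of freedom over genes was 28.6 and 31 for the pairs with replicate 2 and 9.31 for the other pair, and between GFP- libraries it was 23.9 and 26.3 against 12.9 in the same way. The proteasome genes of some libraries also lay low together. Replicate 1 of the treated Eomes-TKO group was the lower of its pair for 45 of 47 tested subunit and chaperone genes, 95.7%, against 51.0% of all genes. Replicate 3 of the Eomes-TKO IgG group was the lowest of its group for 74.5%, against 35.8% of all genes, and replicate 1 of the Eomes-GFP IgG group for 72.3% against 48.4%. These 3 libraries held 6080975, 7139606 and 7627038 estimated counts. GFP+ replicate 1 held 7514385, with core genes summing to 865 CPM, and was the lowest of its group for 44.7%, against 33.6% of all genes. The part of sequencing depth was not tested. Each library was left out in turn, and results that rest on one are given without it.

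Of the 51 members, 49 passed the filter on low counts and were tested. Psma8, the alpha subunit of germ cells, had 1 count in a single library, and Psmb11, the beta subunit of the thymic cortex, had 0 counts in all 13, each library allowing up to 0.271 to 0.468 CPM by counting error alone. All other core, cap, activator and chaperone genes were tested. The name-only Psmc3ip lay at 0 to 2.40 CPM.

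Compared per kilobase of merged exons, Psme1 had the highest level of the members, with a median of 119 CPM per kb over the 13 libraries, and Psmb8 the next, with 54.2. Both kept these ranks when the longest coding transcript was used as the length. Psmb5, the constitutive counterpart of Psmb8, had 30.5 CPM per kb, and the ratio of Psmb8 to Psmb5 per length was above 1 in every library, from 1.45 to 2.26 with merged exons and from 3.00 to 4.70 with the longest transcript. The ratio of Psmb9 to Psmb6 ranged from 0.633 to 1.23 and from 0.731 to 1.42 on the 2 lengths, so the order of that pair was not fixed. The ratio of Psmb10 to Psmb7 ranged from 2.12 to 3.97 and from 0.933 to 1.75, and it fell below 1 on the longest transcript in treated Eomes-TKO replicate 1. All 7 chaperones ranked between 39 and 48 on both lengths.

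Summed over each class, core, cap and immunoproteasome RNA was highest in GFP+ cells. The 14 constitutive core genes summed to 865, 991 and 883 CPM in GFP+ libraries and to 729, 774 and 753 in GFP- libraries, a ratio of means of 1.21. In the Eomes-GFP IgG libraries they summed to 624 and 719, in treated Eomes-TKO libraries to 558 and 782, and in Eomes-TKO IgG libraries to 648, 720 and 543. GFP+ libraries therefore lay above every other library for the core. The 3 immunoproteasome genes summed to 450, 458 and 464 CPM in GFP+ libraries and to 369, 394 and 340 in GFP- libraries, with 265 and 313 in Eomes-GFP IgG libraries. The 17 cap genes summed to 1076, 1174 and 1107 CPM in GFP+ libraries against 952, 1027 and 947 in GFP- libraries, a ratio of 1.15. The 7 chaperones overlapped, at 97.2, 116 and 101 CPM against 100, 107 and 104. In bulk samples, fewer cells with a high level and less RNA per cell cannot be told apart.

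**Figure D1:**
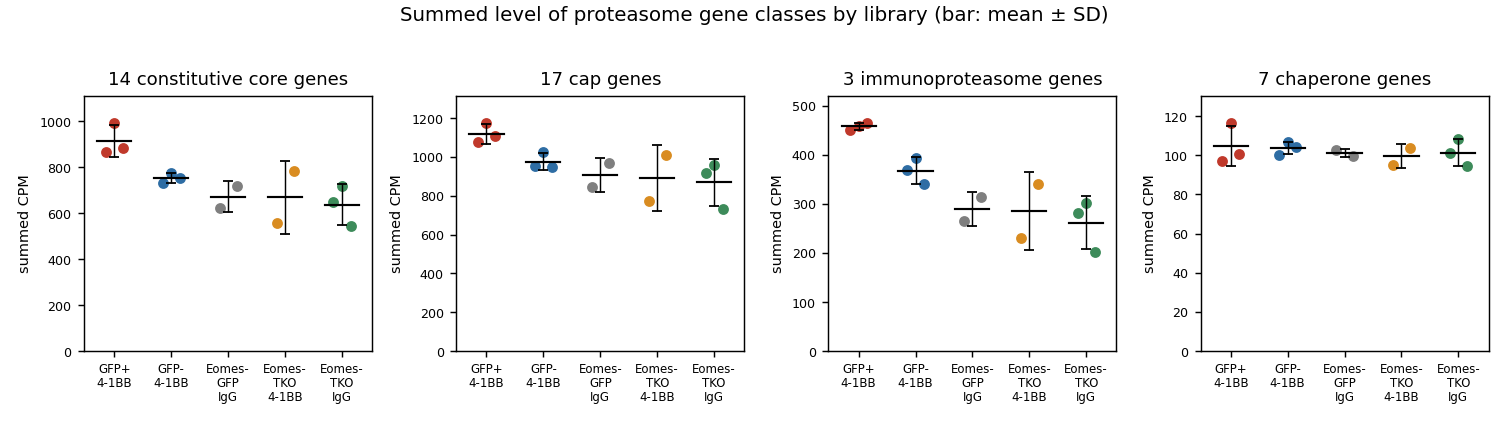
Summed CPM (vertical axes, from 0) of the constitutive core, cap, immunoproteasome and chaperone genes in each of 13 libraries (points) of 5 groups (horizontal axes), with the mean (bar) and SD (whiskers). GFP+ libraries lie above all others for the core (865 to 991 CPM), cap (1076 to 1174 CPM) and immunoproteasome genes (450 to 464 CPM). The chaperone sums overlap.

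The first comparison set GFP+ against GFP- cells of treated Eomes-GFP mice and asked which members differ between helper cells that express Eomes and those that do not. Differences were modest. Of the 49 tested members, the name-only pair included, GFP+ cells had 6 higher, among them the name-only Psme3ip1, and 2 lower. No member changed by more than 2-fold in any of the 7 comparisons. With 16.3% of members called, the share was below the 37.1% of all 14059 tested genes called in this comparison (edgeR's quasi-likelihood test, Benjamini-Hochberg adjusted p under 0.05). Of all genes 20.7% were higher and 16.5% lower, against 15.5% and 22.0% with upper-quartile scaling, which moved the median of all genes to -0.12 and left 2 members higher and 2 lower.

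Among core genes, Psma1 and Psmb3 rose. Psma1, an alpha ring subunit, stood at 67.5, 104 and 66.3 CPM in GFP+ libraries and at 46.8, 52.3 and 55.2 in GFP- libraries. Its log2 fold change was 0.62 ± 0.17 (SE), with an adjusted p of 0.00947 by edgeR. Replicate 2 of GFP+ cells was the highest, and without it the change was 0.35 and no longer called (adjusted p = 0.0704). Psmb3, a non-catalytic beta subunit, stood at 65.4, 90.3 and 75.2 CPM against 44.4, 46.9 and 57.4, and its log2 fold change was 0.63 ± 0.15 (edgeR adjusted p = 0.00398). The groups did not overlap for either gene. With both replicate 2 libraries of treated Eomes-GFP mice left out, Psmb3 was at 0.43 and not called (adjusted p = 0.0896 by edgeR).

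The other 12 constitutive core genes were not called. All 14 core genes had a positive fold change, with a median of 0.23 on the log2 scale against 0.02 for all genes, and with upper-quartile scaling 11 of 14 were positive with a median of 0.09 against -0.12 for all genes. The libraries of 7 of the 14 did not overlap, all with GFP+ higher, where 27.6% of all genes did so in that direction. The constitutive catalytic subunits were at 0.36 ± 0.22 for Psmb5, 0.10 ± 0.15 for Psmb6 and 0.19 ± 0.13 for Psmb7. Psmb5 stood at 29.8, 43.9 and 32.5 CPM in GFP+ and at 25.2, 30.5 and 26.9 in GFP- libraries, which overlap. Psmb6 reached 67.3 CPM in GFP+ replicate 2 alone and stood at 47.3 and 49.3 in the others, within or below the 49.3 to 52.3 of GFP- libraries.

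None of the immunoproteasome genes was called between GFP+ and GFP- cells, although for each the GFP+ libraries all lay above the GFP- libraries. Psmb8 stood at 253, 238 and 266 CPM against 201, 211 and 183, with a log2 fold change of 0.35 ± 0.16 (95% interval -0.03 to 0.73, edgeR adjusted p = 0.111). With the library prefix as a block over the 6 libraries, which pairs GFP+ and GFP- cells of a prefix, Psmb8 was called at 0.31 (edgeR adjusted p = 0.0243). It was also called at 0.31 in those 6 libraries without the block (edgeR adjusted p = 0.0224). Psmb9 stood at 114, 120 and 111 CPM against 98.9, 103 and 85.1, a log2 difference of 0.26 ± 0.14. Psmb10 stood at 83.0, 99.5 and 86.9 CPM against 69.9, 79.0 and 71.5, a log2 difference of 0.29 ± 0.18.

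**Figure D2:**
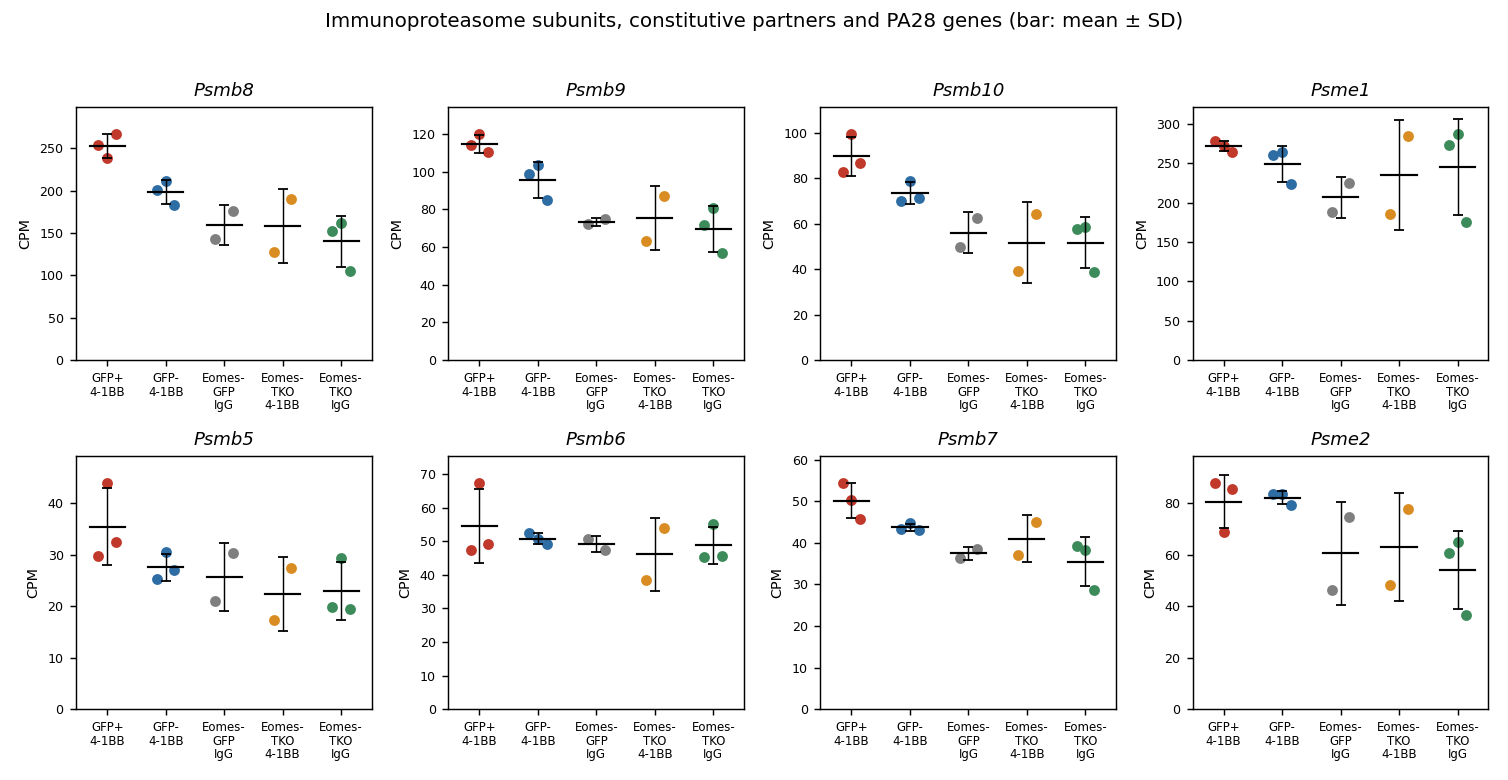
CPM (vertical axes, from 0) of Psmb8, Psmb9 and Psmb10, of their constitutive counterparts Psmb5, Psmb6 and Psmb7, and of the PA28 genes Psme1 and Psme2 in 13 libraries (points) of 5 groups, with mean (bar) and SD (whiskers). The 3 GFP+ libraries of Psmb8, at 238 to 266 CPM, lie above all 10 others, while Psmb6 and Psme1 overlap between groups.

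In the cap, Psmd8, Psmd14 and Psmd1 rose. Psmd14, the deubiquitinase of the lid that removes ubiquitin chains as the substrate enters, stood at 63.1, 61.7 and 59.7 CPM in GFP+ libraries and at 45.2, 51.7 and 43.9 in GFP- libraries, a log2 fold change of 0.39 ± 0.12 (edgeR adjusted p = 0.0178). Psmd8, a lid subunit, stood at 104, 137 and 105 CPM against 83.1, 89.8 and 80.7, a change of 0.45 ± 0.16 (edgeR adjusted p = 0.0418). Psmd1, the large scaffold of the base, stood at 79.7, 87.5 and 70.6 CPM against 65.4, 64.9 and 63.7, a change of 0.29 ± 0.11 (edgeR adjusted p = 0.0494). Libraries did not overlap for any of the 3. Leaving out single libraries ended the cap calls in most cases: without GFP+ replicate 2, Psmd14 had an adjusted p of 0.0527, Psmd8 of 0.238 and Psmd1 of 0.241 by edgeR. With the prefix block Psmd1 was at 0.24 and not called (edgeR adjusted p = 0.0763), while the cap genes Psmd2, Psmc2 and Psmd13 were called at 0.31, 0.29 and 0.32 (edgeR adjusted p = 0.0154, 0.0488 and 0.0499).

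Over the 17 cap genes, 14 had a positive fold change with a median of 0.15, and with upper-quartile scaling 10 did with a median of 0.01. None of the 6 base ATPases was called. Psmc2 had the smallest p of these, at 0.34 ± 0.13 (adjusted p = 0.0600 by edgeR), with 60.8, 54.9 and 57.2 CPM in GFP+ and 47.3, 46.4 and 43.3 in GFP- libraries. Psmc5, Psmc6 and Psmd7 were the 3 cap genes with a negative value, at -0.08, -0.08 and -0.06. Psmc6, another ATPase, stood at 53.5, 57.7 and 58 CPM in GFP+ and at 59.9, 60.4 and 58.4 in GFP- libraries, the only cap gene whose GFP+ libraries all lay below, as they did for 23.7% of all genes.

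Among activators and inhibitors 1 of 6 was called and the median was 0.00. Psme1 stood at 278, 272 and 265 CPM in GFP+ and at 261, 264 and 223 in GFP- libraries, a log2 difference of 0.12 ± 0.18 (95% interval -0.29 to 0.54) that turned to -0.01 with upper-quartile scaling, although the GFP+ libraries all lay above. Psme2 stood at 87.9, 68.7 and 85.5 CPM against 83.8, 83.6 and 79.3, a log2 difference of -0.03 ± 0.23 (95% interval -0.56 to 0.51). Psme3, Psme4 and Psmf1, which encode the nuclear activators PA28 gamma and PA200 and the inhibitor PI31, were at 0.08, -0.00 and 0.01 with overlapping libraries. Psme2b fell by 0.46 ± 0.12 on the log2 scale (edgeR adjusted p = 0.00940), from 42.0, 40.9 and 41.8 CPM in GFP- to 29.0, 26.8 and 34.6 in GFP+ libraries. Its value is uncertain, because the longest Psme2b and Psme2 transcripts were 99.4% identical over 794 aligned bases and 76.5% of the 31-base stretches of Psme2b also occur in Psme2. Summed over both genes, the level was 117, 95.6 and 120 CPM in GFP+ and 126, 125 and 121 in GFP- libraries.

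Of the 7 chaperones 1 fell and none rose. Psmg1, which pairs with Psmg2 to build the alpha ring, fell by 0.83 ± 0.23 on the log2 scale (edgeR adjusted p = 0.00984), with 5.13, 7.99 and 5.16 CPM in GFP+ and 10.6, 10.4 and 11.4 in GFP- libraries. These levels rest on 37, 61 and 48 counts in GFP+ libraries. The fall of Psmg1 was called with each of the 6 libraries left out in turn, as was that of Psme2b. Its partner Psmg2 stood at 10.7, 13.9 and 13.9 CPM against 11.1, 9.5 and 14, a log2 difference of 0.15 ± 0.19. Psmg3 and Psmg4, the second pair of alpha ring chaperones, were at 0.84 ± 0.33 and -0.69 ± 0.44 on few counts, with overlapping libraries. The base chaperones Psmd5, Psmd9 and Psmd10 were at 0.14, -0.14 and 0.30 and were not called.

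Psme3ip1, a name-only member, rose by 0.35 ± 0.12 on the log2 scale (edgeR adjusted p = 0.0380), with 37.6, 45.3 and 46.0 CPM in GFP+ and 33.2, 31.9 and 36.0 in GFP- libraries. With the prefix block it was at 0.30 and not called (edgeR adjusted p = 0.071). Without GFP+ replicate 2, Psme3ip1 was not called (edgeR adjusted p = 0.140). The count of members higher was 1 without that library, with 30.9% of all genes called in either direction. The count was 2 without GFP- replicate 1 (29.7%), and 3 without GFP- replicate 2 (30.9%) or without GFP+ replicate 3 (32.2%). With both replicate 2 libraries left out it was 1, with 25.5% of all genes called.

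**Figure D3:**
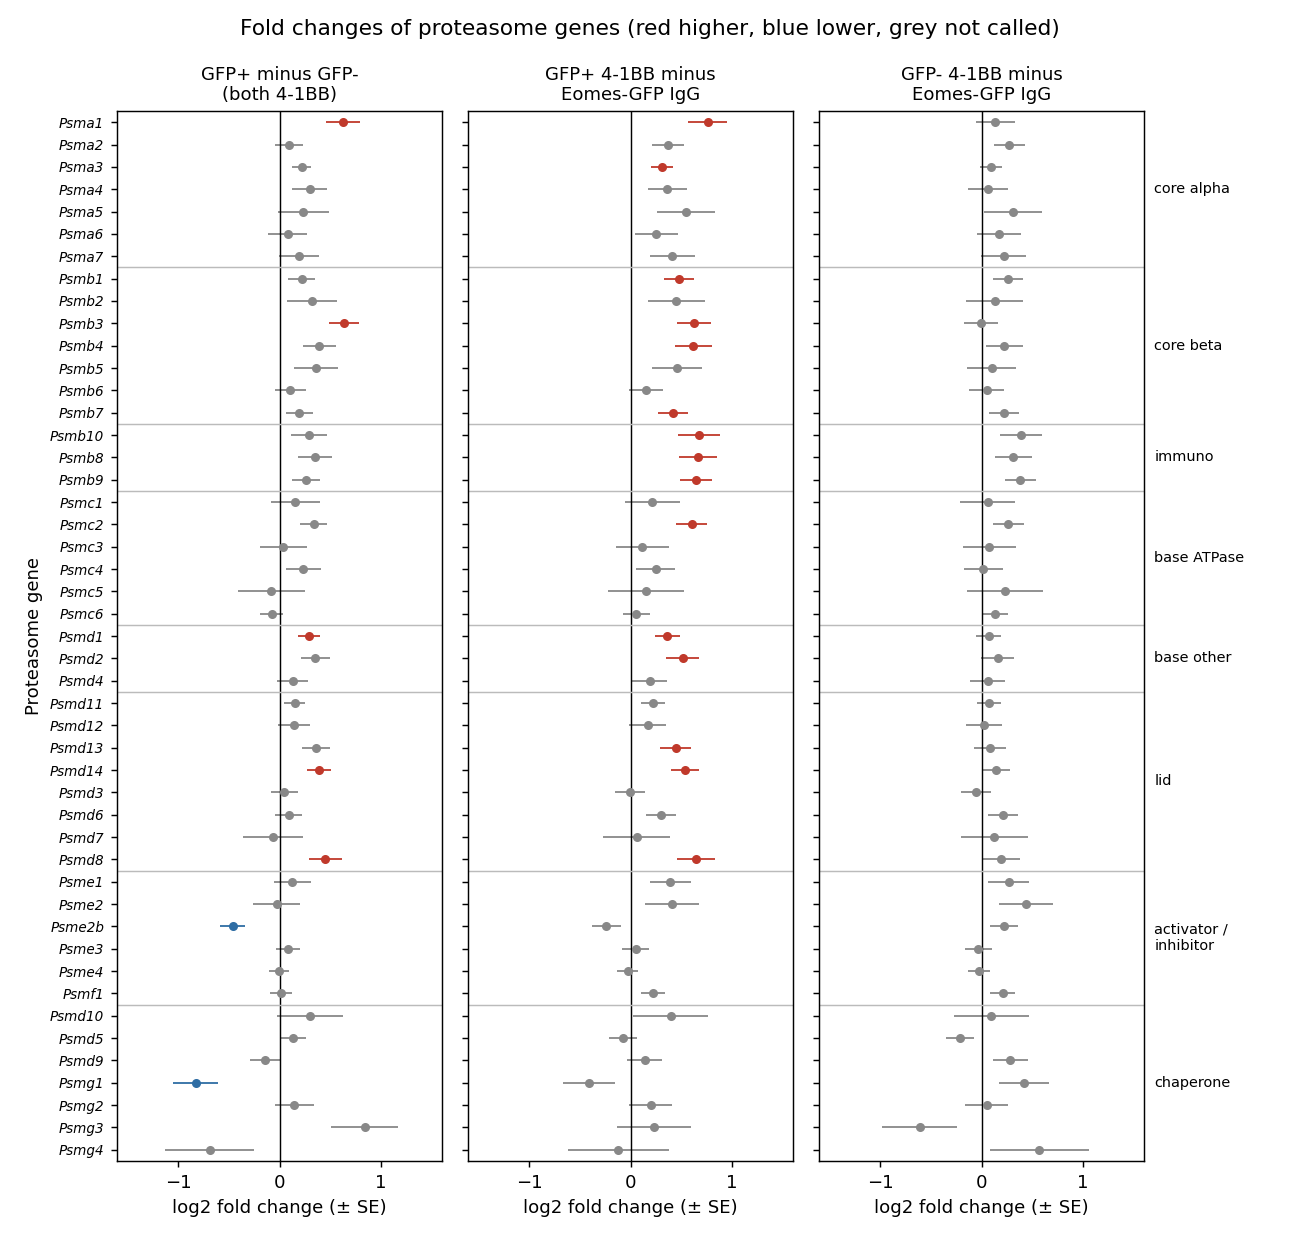
Log2 fold changes (horizontal axes, points, with SE as whiskers) of the 47 tested subunit, activator and chaperone genes (rows, by class) in GFP+ against GFP- cells, GFP+ against Eomes-GFP IgG cells, and GFP- against Eomes-GFP IgG cells. Called genes are red where higher and blue where lower: 5 and 2 in the first panel, 15 and 0 in the second, none in the third.

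The genes that control or serve the proteasome were read from lists chosen by function. Of 10 partners found in the table, Pomp and Ublcp1 rose and none fell. Pomp, the maturation factor of the core, stood at 76.2, 94.8 and 67.0 CPM in GFP+ and at 45.4, 53.4 and 53.1 in GFP- libraries, a log2 fold change of 0.65 ± 0.14 (edgeR adjusted p = 0.00239). Ublcp1, a phosphatase of the nuclear proteasome, rose by 0.68 ± 0.20. Adrm1, the ubiquitin receptor of the cap, stood at 84.7, 101 and 87.5 CPM against 75.7, 76.0 and 77.3, and was not called at 0.25 ± 0.10 (edgeR adjusted p = 0.0668).

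Of 9 tested regulators of proteasome genes, 4 rose and 1 fell. Ngly1, the deglycosylase that activates the transcription factor Nfe2l1, stood at 191, 180 and 189 CPM in GFP+ libraries and at 74.4, 69.2 and 75.4 in GFP- libraries, a log2 fold change of 1.35 ± 0.10 (edgeR adjusted p = 9.52e-08). Nfe2l1 itself, which drives proteasome genes when proteasomes are short, stood at 125, 140 and 132 CPM against 84.0, 109 and 95.9, a change of 0.46 ± 0.12 (edgeR adjusted p = 0.00846). Ddi2, the protease that cleaves Nfe2l1, was not called at 0.17. Nfe2l2, which binds the same element in the antioxidant response, fell by 0.66 ± 0.11, with 45.3, 39.5 and 42.8 CPM against 67.0, 70.4 and 64.4 (edgeR adjusted p = 0.000299). Nfyb, a subunit of the CCAAT-binding factor, rose by 0.76 and Zfand5 by 0.33. Ngly1, Nfe2l1, Nfe2l2, Nfyb and Pomp were called under every alternative tried in this comparison.

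**Figure D4:**
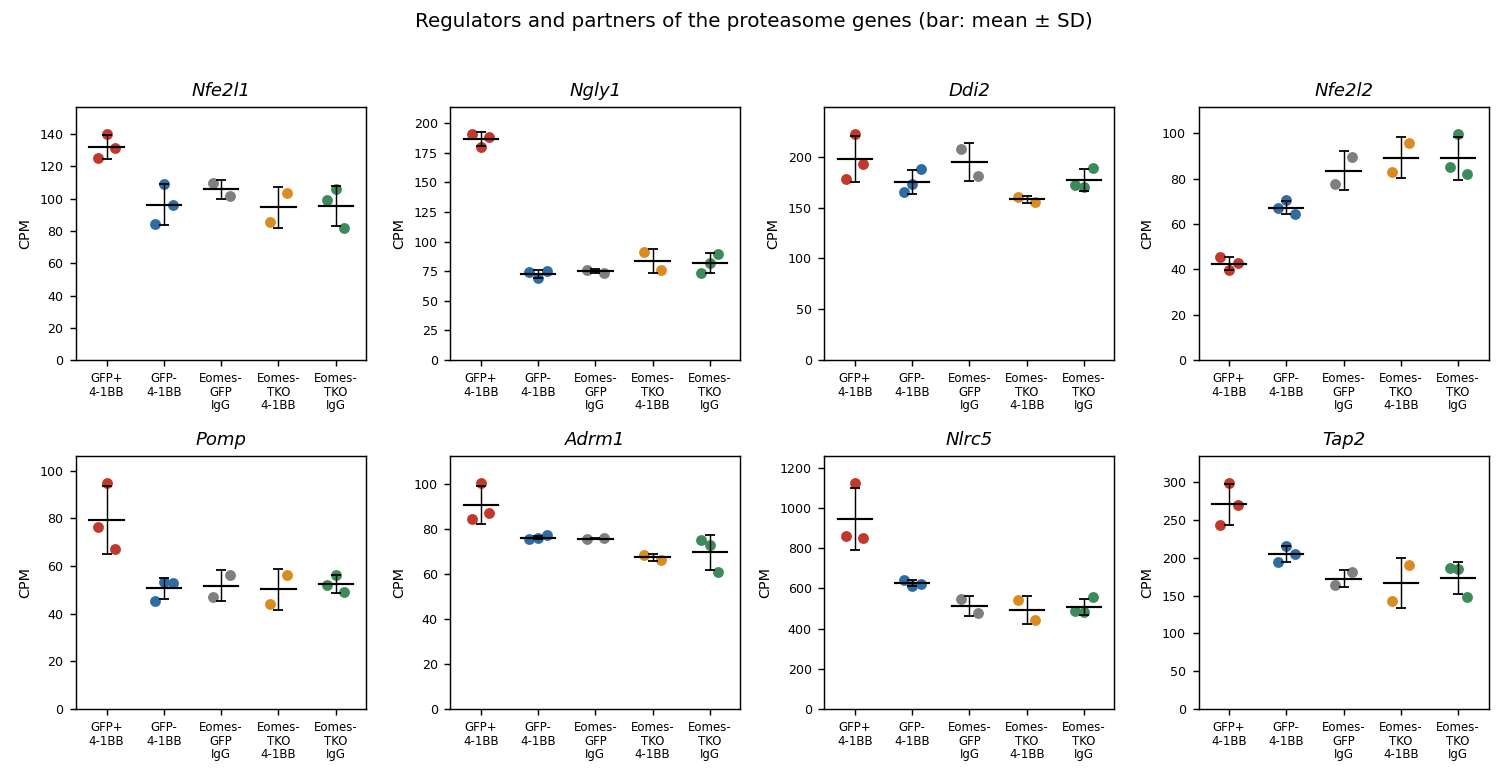
CPM (vertical axes, from 0) of Nfe2l1, Ngly1, Ddi2, Nfe2l2, Pomp, Adrm1, Nlrc5 and Tap2 in 13 libraries (points) of 5 groups, with mean (bar) and SD (whiskers). Ngly1 lies at 180 to 191 CPM in GFP+ libraries and at 69.2 to 90.9 CPM in the other 10, and Nfe2l2 is lowest in GFP+ libraries.

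Ubiquitin supply and delivery genes moved little, with 2 of 14 higher and 1 lower: Uba6, a ubiquitin-activating enzyme, at 0.75, Vcp, the unfolding ATPase, at 0.34, and Ubqln2, a shuttle, at -0.36. Of 15 genes of the MHC class I peptide pathway, 5 rose and none fell. Tapbpl, a peptide editor, rose by 0.97, Nlrc5 by 0.60, Tap2 by 0.40 and H2-D1 by 0.35. Nlrc5 stood at 862, 1122 and 850 CPM in GFP+ and at 641, 611 and 623 in GFP- libraries. Tap1, between Psmb9 and Psmb8, was not called at 0.32 (edgeR adjusted p = 0.0670). Of 20 interferon response genes 3 rose and 7 fell, with a median of -0.43. Iigp1 was at -2.78, Oasl2 at -2.49, Irf8 at 2.28 and Mx1 at 1.59.

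Other large complexes were read beside the core. None of the 8 subunits of the CCT chaperonin, which folds actin and tubulin, was called by edgeR, and their median was -0.26. Of 9 subunits of the COP9 signalosome, which resembles the lid in architecture, Cops7b rose by 0.55 and the median was 0.10. Of 13 subunits of the initiation factor eIF3, Eif3e and Eif3j1 fell and the median was -0.13. The difference between complexes was not tested.

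Cell cycle and marker genes moved with the same comparison. All 20 proliferation genes rose in GFP+ cells, with a median of 1.63, and their sum was 1540 to 2075 CPM against 608 to 745. Of the 8 plasma and myeloma markers, 3 rose, and the list summed to 332 to 492 CPM against 103 to 111. Prdm1 and Irf4, which T cells also express, made most of the sum, Igkc stood at 76.1, 82.0 and 79.6 CPM against 0.0903 to 0.488, and Jchain, Sdc1, Tnfrsf17 and Mzb1 were at or under 0.554 CPM in these 6 libraries. The 8 myeloid markers summed to 49.1 to 81.6 CPM against 17.4 to 34.6. Foxp3, sorted against by its reporter, was at or under 2.65 CPM in all 13 libraries, while Ikzf2, which regulatory and other T cells express, stood at 545, 621 and 541 CPM in GFP+ and at 47.9, 85.7 and 72.6 in GFP- libraries. Their part in the differences of proteasome genes was not tested.

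The second comparison set GFP+ cells against undivided cells of Eomes-GFP mice given IgG, which differ by treatment and by the sort. Here 15 of 49 members were higher and none lower, 30.6% against 34.2% of all genes called, or 18.8% higher and 15.4% lower. With upper-quartile scaling, all genes were called 15.2% higher and 21% lower, the median of all genes was -0.14, and 9 members were higher. The members' median was 0.30 on the log2 scale, against 0.00 for all genes. GFP+ libraries are shared with the first comparison, so the values are given side by side and not as separate evidence.

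All 3 immunoproteasome genes rose. Psmb8 stood at 143 and 176 CPM in the IgG libraries, below the 238 to 266 of GFP+ libraries, a log2 fold change of 0.66 ± 0.19 (95% interval 0.24 to 1.09, edgeR adjusted p = 0.0131). Psmb9 stood at 72.0 and 74.7 CPM, below 111 to 120, a change of 0.65 ± 0.16 (edgeR adjusted p = 0.00503). Psmb10 stood at 49.7 and 62.5 CPM, below 83.0 to 99.5, a change of 0.68 ± 0.21 (edgeR adjusted p = 0.0211). Without IgG replicate 1, none of the 3 was called, with 0.49, 0.59 and 0.49 and edgeR adjusted p of 0.171, 0.0635 and 0.220. Psmb10 was also lost without GFP+ replicate 2 (edgeR adjusted p = 0.0840).

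Among constitutive core genes 6 of 14 rose, all 14 were positive, the median was 0.44, and the GFP+ libraries of 11 lay above both IgG libraries, against 29.1% of all genes. Psma1 was at 0.76, Psmb3 at 0.62, Psmb4 at 0.62, Psmb1 at 0.48, Psmb7 at 0.42 and Psma3 at 0.31. Psmb4, a non-catalytic beta subunit, stood at 40.7 and 46.7 CPM in IgG and at 55.0, 82.6 and 63.9 in GFP+ libraries. The catalytic subunits Psmb5 and Psmb6 were not called, at 0.46 ± 0.25 and 0.15 ± 0.17. In the cap 6 of 17 rose: Psmd8 at 0.65, Psmc2 at 0.60, Psmd14 at 0.54, Psmd2 at 0.51, Psmd13 at 0.44 and Psmd1 at 0.36. Psmc2, a base ATPase, stood at 33.7 and 42.1 CPM in IgG libraries, below the 54.9 to 60.8 of GFP+ libraries (edgeR adjusted p = 0.00627). Psmd2, the other large base scaffold, stood at 83.2 and 90.8 CPM against 110, 141 and 122.

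No activator or chaperone was called. Psme1 was at 0.39 ± 0.20 (95% interval -0.08 to 0.86), with 188 and 225 CPM in IgG libraries, and Psme2 at 0.41 ± 0.26, with 46.4 and 74.7. Psmg1 was at -0.41 ± 0.25, with 8.14 and 8.03 CPM in IgG libraries. Leaving out 1 GFP+ library left 11, 6 and 10 members higher without replicate 1, 2 or 3. Of all genes 31.4%, 30.4% and 30.5% were called in these fits, in either direction. Leaving out an IgG library leaves 1 in that group, so medians are given. The members' median was 0.19 without IgG replicate 1 and 0.47 without IgG replicate 2, against 0.30 with both. Within this IgG pair, replicate 1 was the lower library for 72.3% of the 47 tested genes without the name-only pair, against 48.4% of all genes. All 20 proliferation genes rose here too, with a median of 3.63. Sums of other marker lists in GFP+ against IgG libraries were 386 ± 91.6 against 86.7 ± 6.65 CPM (mean ± SD, n = 3 and 2) for plasma and myeloma, 64.4 ± 16.3 against 9.36 ± 0.0787 for myeloid, 7.09 ± 2.77 against 0.895 ± 0.712 for dendritic, 0.656 ± 0.119 against 6.83 ± 0.239 for NK and 573 ± 46.1 against 88.8 ± 8.05 for regulatory T cell genes, the last mostly Ikzf2. Their part in the result was not tested.

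The related genes rose in part. Ngly1 was at 1.32, Nfyb at 0.69, Zfand5 at 0.38, Nfe2l2 at -0.97 and Nfya, another subunit of the CCAAT-binding factor, at -0.38, all called, and Nfe2l1 was not called at 0.32 (edgeR adjusted p = 0.0817), with 110 and 102 CPM in IgG libraries. Nfya was not called without IgG replicate 2 or GFP+ replicate 3 (edgeR adjusted p = 0.148 and 0.0541). Pomp rose by 0.61 and Adrm1 was not called at 0.26. Of the MHC class I pathway 6 of 15 rose and 1 fell, with Tapbpl at 1.2, Nlrc5 at 0.89, Tap2 at 0.65 and Tap1 at 0.53. Of the ubiquitin genes 3 of 14 rose, Ubb at 0.57, Nploc4 at 0.39 and Vcp at 0.39, and Ubqln4 fell by 0.45.

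In the third comparison, GFP- cells against Eomes-GFP IgG cells, no member was called by edgeR, where 0.761% of all genes were, and DESeq2 and limma-voom also called none. At an unadjusted p under 0.05 edgeR gave 1 member, against 8.76% of all genes. This was Psmb9, with 98.9, 103 and 85.1 CPM against 72.0 and 74.7, a log2 difference of 0.38 ± 0.16 (95% interval 0.02 to 0.74, adjusted p = 0.453 by edgeR). Psmb8 was at 0.31 ± 0.18 (95% interval -0.11 to 0.74) and Psmb10 at 0.39 ± 0.21 (95% interval -0.09 to 0.86). For each of the 3, the GFP- libraries lay above both IgG libraries, as for 14.3% of all genes, and below the GFP+ libraries. The constitutive core had a median of 0.16 with 13 of 14 positive, and the cap a median of 0.08. Psme2 was at 0.44 ± 0.26 and Psme1 at 0.27 ± 0.20. Proliferation genes rose in 11 of 20.

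Treated Eomes-TKO cells, which were not divided, were set against GFP+ cells of treated mice. Of 49 members 12 were lower and 1 higher, 26.5% against 34.6% of all genes called, or 15.7% higher and 18.8% lower. With upper-quartile scaling all genes were called 22.2% higher and 14.4% lower, the median of all genes was 0.16, and 7 members were lower and 2 higher. All 14 core and 17 cap genes were negative, with medians of -0.39 and -0.26, against 14 core and 14 cap genes with upper-quartile scaling. Both Eomes-TKO libraries lay below all GFP+ libraries for 9 of the 14 core genes, against 27.7% of all genes. Psmb8 stood at 127 and 189 CPM, a log2 difference of -0.67 ± 0.19 (edgeR adjusted p = 0.0126). Psmb9 stood at 63.2 and 87.3 CPM, at -0.60 ± 0.16 (edgeR adjusted p = 0.00776), and Psmb10 at 39.0 and 64.2 CPM, at -0.79 ± 0.21 (edgeR adjusted p = 0.00953). Both Eomes-TKO libraries lay below every GFP+ library for these 3 genes.

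The core genes Psmb3, Psma1, Psmb4, Psma2 and Psma3 were lower, at -0.78, -0.76, -0.64, -0.47 and -0.33, as were the cap genes Psmd14, Psmd8, Psmd2 and Psmc2, at -0.59, -0.52, -0.52 and -0.47. Psmb5, Psmb6 and Psmb7 were not called, at -0.65 ± 0.25, -0.24 ± 0.17 and -0.29 ± 0.15. Psme1 stood at 186 and 284 CPM and Psme2 at 48.1 and 78.0, with log2 differences of -0.21 and -0.35 that were not called. Psmg1 was higher, at 9.21 and 12.1 CPM, with 0.82 ± 0.25 (edgeR adjusted p = 0.0198). The counts moved with single libraries: 8, 7 and 9 members were lower without GFP+ replicate 1, 2 or 3. Of all genes 31.9%, 29.8% and 30.7% were called in these fits, in either direction. Leaving out an Eomes-TKO library leaves 1 in that group, so medians are given. The members' median was -0.09 without treated Eomes-TKO replicate 1 and -0.55 without replicate 2, against -0.28 with both. Without Eomes-TKO replicate 1 the median of the core was -0.17 and that of all genes -0.01. Psmg1 was not called without Eomes-TKO replicate 2 (edgeR adjusted p = 0.173) or without GFP+ replicates 1 or 3 (0.0529 and 0.0584).

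Beside these, Ngly1 was at -1.16, Nfe2l1 at -0.48, Nfe2l2 at 1.07, Nfyb at -0.55, Pomp at -0.65 and Adrm1 at -0.43, all called. Tapbpl was at -1.17, Nlrc5 at -0.94, Tap2 at -0.69, H2-K1 at -0.65, Tap1 at -0.63 and H2-D1 at -0.60. Uba6 was at -0.69. All 20 proliferation genes were lower, with a median of -2.15. Plasma and myeloma markers summed to 97.6 and 124 CPM in the Eomes-TKO libraries, myeloid markers to 17.5 and 18.8, and regulatory T cell genes to 67.0 and 111, all below the GFP+ libraries. Their part in the result was not tested.

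In the remaining comparisons no member was called. Between treated Eomes-TKO and GFP- cells, edgeR called 0.0427% of all genes and no member, DESeq2 and limma-voom also called no member, and an unadjusted p under 0.05, which 6.97% of all genes had, was reached by Psmb10, Psma2 and Psmb9, at -0.50 ± 0.21, -0.37 ± 0.16 and -0.34 ± 0.16 (all lower in Eomes-TKO). All 31 constitutive core and cap genes were negative there, with a median of -0.13 against 0.00 for all genes, but 1 cap gene was positive with upper-quartile scaling, and 9 of 14 core and 13 of 17 cap genes were positive without Eomes-TKO replicate 1. Treated Eomes-TKO replicate 1 held 558 CPM of core RNA and replicate 2 held 782, above the 729 to 774 of GFP- libraries, so the 2 libraries lay on both sides of that group.

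The 4-1BB antibody against IgG in Eomes-TKO mice gave 0.0427% of all genes called and no member by edgeR, DESeq2 or limma-voom. At an unadjusted p under 0.05 edgeR gave 1 member, against 3.6% of all genes. This was Psme2b, at 0.36 ± 0.14, and its counts are uncertain as stated. Psmb8 was at 0.18 ± 0.18 (95% interval -0.24 to 0.60), Psmb9 at 0.11 ± 0.16 (-0.24 to 0.47) and Psmb10 at 0.00 ± 0.21 (-0.47 to 0.48). Eomes-TKO IgG libraries held 153, 162 and 106 CPM of Psmb8, which overlap the 127 and 189 of treated libraries.

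Under IgG, Eomes-TKO against Eomes-GFP cells gave 0.0142% of all genes called and no member by edgeR, DESeq2 or limma-voom. At an unadjusted p under 0.05 edgeR gave 1 member, against 3.06% of all genes. This was Psmf1, the inhibitor PI31, at 0.26 ± 0.12, with 50.4, 56.3 and 57.0 CPM against 45.7 and 45.1. Psmb8 was at -0.19 ± 0.18 (95% interval -0.61 to 0.24), Psmb9 at -0.07 ± 0.15 (-0.43 to 0.28) and Psmb10 at -0.12 ± 0.21 (-0.59 to 0.36).

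Across all 13 libraries the members varied to different degrees. Psme4 varied least, by 1.22-fold from its lowest to its highest library, and Psmg4 most, by 5.12-fold on few counts. Among genes with more counts, Psmc5 varied by 3.03-fold, Psma5 by 2.73-fold and Psmb8 by 2.52-fold. Of 47 subunit, activator and chaperone genes, 35 had their highest level in a GFP+ library, 19 of them in replicate 2. For 39 the lowest level was in Eomes-TKO IgG replicate 3 (27) or treated Eomes-TKO replicate 1 (12). Such extremes were not counted over all genes, so these numbers do not set the members apart. Within the GFP+ group, replicate 2 was the highest for 51.1% of the 47, against 42.9% of all genes.

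**Figure D5:**
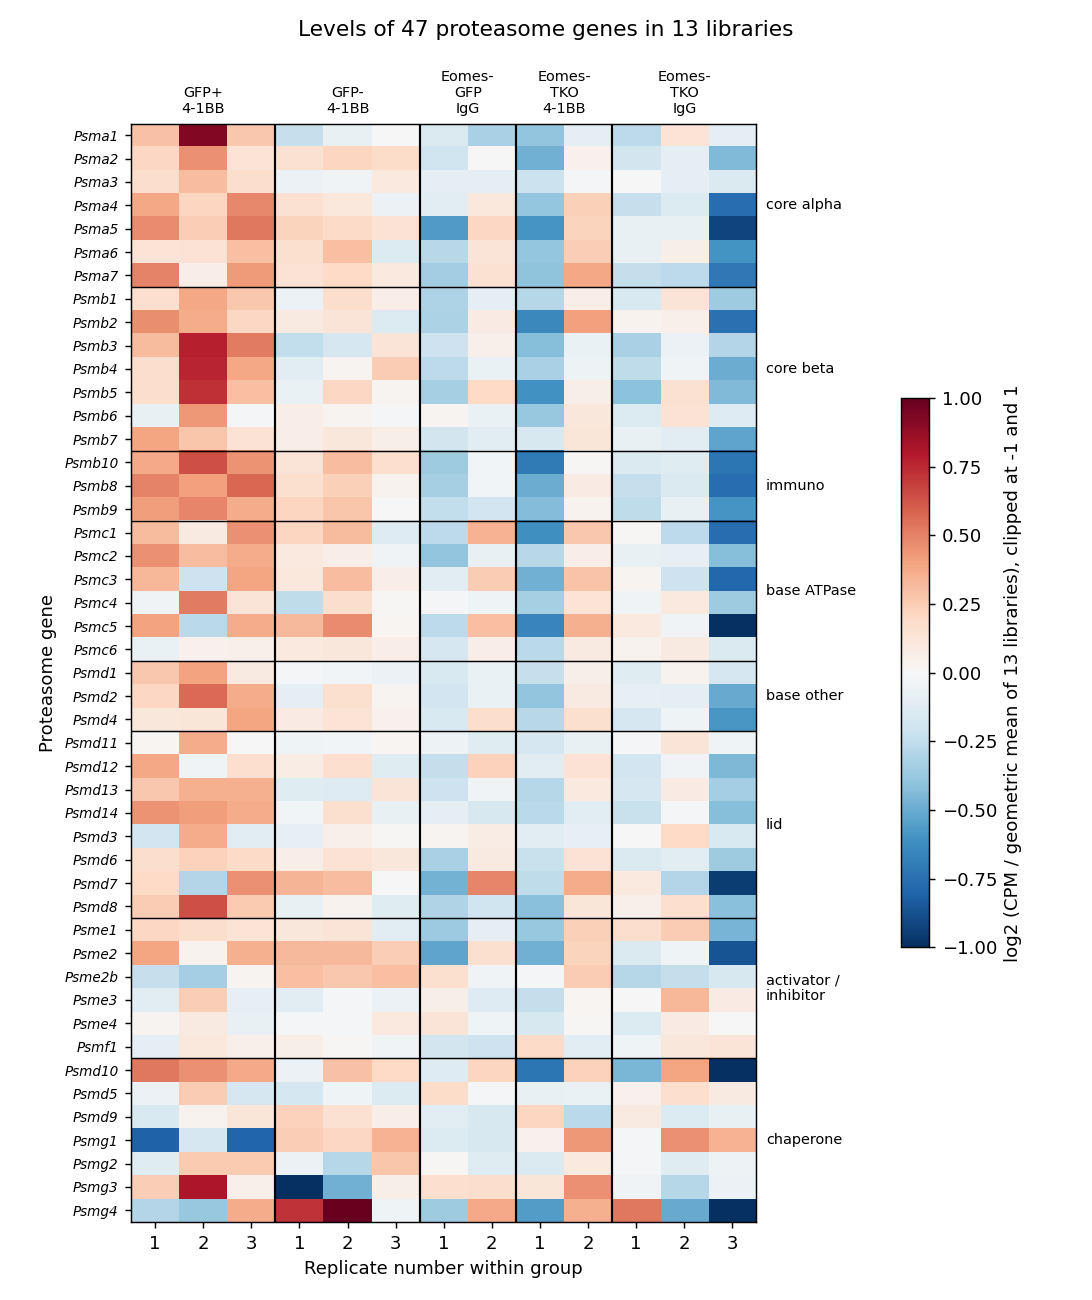
Levels of 47 proteasome genes (rows, by class) in 13 libraries (columns, by group and replicate), coloured by log2 of CPM over the gene's geometric mean, red above and blue below, clipped at -1 and 1. Core, immunoproteasome and cap genes are mostly red in the 3 GFP+ libraries and mostly blue in treated Eomes-TKO replicate 1 and Eomes-TKO IgG replicate 3, and Psmg1 is blue in all 3 GFP+ libraries.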

How the data were processed

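RNA of 13 sorted CD4 T cell libraries in 5 groups was analysed. The deposited table holds estimated counts per gene, made by the authors with Salmon 1.5.2, STAR 2.7.10a, Trim Galore 0.6.7, cutadapt 3.4 and the build GRCm39, per the submitters' processing notes. It has 47 library columns, of which 34 were not used because they belong to no labelled CD4 library. Counts were rounded to whole numbers (6.25% to 7.33% of values were not whole). Totals were 6080975 to 10881146 per library.

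Genes were filtered with filterByExpr, scaled by TMM and tested with edgeR 4.0.16 (R 4.3.3) by the robust quasi-likelihood test in 1 fit of all 13 libraries with a term for each group, leaving 8 residual degrees of freedom, and p-values were Benjamini-Hochberg adjusted over all 14059 genes at 0.05. Standard errors are the fold change over the root of F. The 95% intervals use them with the 8 residual degrees of freedom, not with those of the test. An interval can therefore include no change at an unadjusted p under 0.05, as for Psmf1 between Eomes-TKO and Eomes-GFP cells under IgG. The comparisons share libraries. DESeq2 1.42.0, limma 3.58.1 (voom), other scalings and filters, the compared groups alone, the replicate number or library prefix as a block, and each library left out were alternatives. Leaving out both libraries of 1 prefix (replicate 2 of GFP+ and GFP- cells) was added after seeing the data. The test was also checked on simulated counts with known log2 changes. For GFP+ against GFP- cells it recovered 13 of 67 changes of 0.5, 45 of 67 of 1 and 64 of 66 of 2. For 4-1BB against IgG in Eomes-TKO cells it recovered 7 of 67, 39 of 67 and 64 of 66. Most changes of 0.5 were therefore missed in these counts. They held 13683 and 13678 genes, of which 67, 67 and 66 were changed. In the libraries themselves 37.1% of all genes were called between GFP+ and GFP- cells. With shares that differ this much, the recovery does not give the share of real changes found in that comparison.

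The shared prefix was read as the same mouse, which the labels do not state. Deviations from group means correlated at 0.317, 0.112 and 0.061 within prefixes over all genes, against -0.255 to 0.155 for other pairs, and at 0.384, -0.16 and -0.445 within prefixes over the members, so the data do not settle the pairing.

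The members and gene lists were chosen with earlier results of these data known. Named always were Psmb5 to Psmb10, Psme1, Psme2, Adrm1, Pomp, Nfe2l1 and Nfe2l2, then up to 3 called genes per class and direction by fold (or the smallest p), members with few counts, and up to 4 called genes per related list. Genes named beyond these were chosen after their values were seen. Lengths came from GENCODE M21, and promoters from RefSeq GRCm38.p6, another build than the counts. Motif searches covered both strands.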

Additional observations from a re-analysis of the deposited data

How the results depend on the processing

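Between GFP+ and GFP- cells, the members higher numbered 6, and 1 with both replicate 2 libraries left out, 3 with genes filtered at a mean CPM of 1, 2 with upper-quartile factors and 11 with the replicate number as a block, whose numbers follow the library prefixes in GFP+ and GFP- cells. Of all genes 37.1%, 25.5%, 37.2%, 37.6% and 38.4% were called in these settings, in that order and in either direction. The prefix block over 6 libraries gave 8: it kept Psma1, Psmb3, Psmd8 and Psmd14, lost Psmd1 and Psme3ip1 and added Psmb8, Psmc2, Psmd2 and Psmd13. Of all genes 42.7% were called with the prefix block. Leaving out 1 library gave 1 to 4 members higher, with 29.7% to 32.7% of all genes called. Against IgG the 15 higher, with 34.2% of all genes called, became 5 without both replicate 2 libraries (28.7%) and 9 with upper-quartile factors (36.1%). With 1 GFP+ library left out they became 6 to 11 (30.4% to 31.4%). Without IgG replicate 1 or 2, which leaves 1 library in that group, the members' median was 0.19 or 0.47, against 0.30 with both. For treated Eomes-TKO against GFP+ cells, the 12 lower became 6 and the 1 higher became 0 with the 2 groups alone, 7 and 2 with upper-quartile factors, and 0 to 21 and 0 to 1 with 1 library left out. Both ends of this last range of members lower came from fits without an Eomes-TKO library, which leave 1 in that group. Of all genes 34.6% were called in this comparison with all libraries, and fewer with any GFP+ library left out. The counts of members are therefore not to be read alone. The cause of these changes was not tested.

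Directions that turned belonged to genes not called. Without both replicate 2 libraries, Psmb6 was at -0.10 (GFP-) and -0.050 (IgG) and Psme2 at 0.057 (GFP-). With upper-quartile factors Psmb6 was at -0.039 and Psme1 at -0.012 against GFP-. With the replicate number as a block, Psmb10 was at -0.087 for 4-1BB against IgG in Eomes-TKO cells and Psmb6 at 0.024 for Eomes-TKO against Eomes-GFP under IgG. Each library of these groups has its own prefix, so this block joins libraries that the labels do not link.

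With 1 library left out, the log2 differences of genes that turned ranged as follows. For GFP- against IgG, Psmb5 -0.13 to 0.39. For GFP+ against IgG, Psmb6 -0.050 to 0.22. For GFP+ against GFP-, Psmb6 -0.10 to 0.17, Psme2 -0.12 to 0.045. For 4-1BB against IgG in Eomes-TKO cells, Psmb10 -0.41 to 0.31, Psmb5 -0.41 to 0.25, Psmb6 -0.35 to 0.14, Psmb8 -0.14 to 0.43, Psmb9 -0.15 to 0.32, Psme1 -0.40 to 0.21, Psme2 -0.18 to 0.52. For treated Eomes-TKO against GFP-, Psmb6 -0.41 to 0.078, Psmb7 -0.24 to 0.033, Psme1 -0.43 to 0.19. For treated Eomes-TKO against GFP+, Psmb6 -0.51 to 0.0093, Psme1 -0.55 to 0.096. For Eomes-TKO against Eomes-GFP under IgG, Psmb10 -0.27 to 0.061, Psmb5 -0.40 to 0.13, Psmb6 -0.11 to 0.045, Psmb7 -0.16 to 0.062, Psmb9 -0.19 to 0.064, Psme2 -0.46 to 0.23.

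Few counts limit the assembly chaperones Psmg1, Psmg3 and Psmg4, and groups of 2 or 3 libraries limit all comparisons. Whether replicates are technical is not stated, intervals cover the spread between these libraries only, and the undivided groups differ from GFP+ and GFP- cells by the sort as well as by treatment or genotype. These cannot be told apart.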
